A study of Mus musculus with 4 samples.

Results

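The 89 genes described here had their highest signal in Runx1+/VE-cadherin+/CD41- cells. These cells have switched on Runx1 but do not yet carry CD41 on their surface. They are treated here as haemogenic endothelium, where the paper describes progenitors of the lateral mesoderm that can form endothelium and blood. The 89 genes were chosen on the measured values themselves. Each gene was read from its brightest probe set, by the mean of the log2 signals. A gene was called dynamic where its signal passed 100 in any of the 4 sorted populations and the SD of the 4 log2 signals was above 1. Of 18194 genes on the array, 9468 passed 100 in some population and are called the genes above 100, and 1380 of these were dynamic. Of the dynamic genes 89 (6.45%) peaked in Runx1+/VE-cadherin+/CD41- cells, which is 0.94% of the genes above 100, where 5.51% peaked there at any SD. The levels over the populations are therefore a description of what the rule selected, and no test was made on them.

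Haemogenic endothelium is a small set of endothelial cells from which the first blood cells of the embryo bud. During this endothelial-to-haematopoietic transition, cells held in the vessel wall by the adherens junction protein VE-cadherin switch on the transcription factor Runx1, gain the integrin CD41, lose VE-cadherin and round up. Wnt, BMP, retinoic acid and Notch signals are known to act on these cells, and Gfi1 and its relative Gfi1b take part in shutting down their endothelial genes.

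The cells came from a single heterozygous Runx1(Venus/+) ES cell line made in CCE ES cells, with a Venus reporter in the P2 5'UTR of Runx1 read from the proximal promoter, so that all groups carried the same modified allele. They were differentiated for 6 days on OP9 stromal cells without further treatment and sorted by flow cytometry. Population 1 was Runx1-/VE-cadherin+/Flk1+, population 2 Runx1+/VE-cadherin+/CD41-, population 3 Runx1+/VE-cadherin+/CD41+ and population 4 Runx1+/VE-cadherin-/CD41+. Each was measured on 1 Affymetrix array, so a difference between populations has no replicate check, and precision is limited by the number of arrays.

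The median signal over all probe sets was 30.9 to 41.4, and 8097 to 8666 genes were above 100, both lowest in population 2 and highest in population 3. The sort markers were read as a check of the labels. Runx1 gave signals of 55.3, 358, 1297 and 2440.2 in populations 1 to 4, and Cdh5, which encodes VE-cadherin, gave 5683, 3946, 4849 and 40.9. Kdr, which encodes Flk1, gave 5866, 4496, 4835 and 906. Itga2b, which encodes CD41, gave 667, 1135, 2418 and 1609.5, so its transcript was already present in cells sorted as negative for the surface protein. All 30 genes of an endothelial identity list exceeded 100, and population 2 exceeded population 4 by 2-fold or more for 26 of them. Of 16 erythroid, 15 megakaryocyte and 14 myeloid genes above 100, none peaked in population 2 among the dynamic genes, where 0.94% of all genes above 100 did. At so small a share, a count of none says little about the labels. At any SD, Cd68 of the myeloid list alone was highest in population 2, with 155, 276, 236 and 173. These are sorted bulk cells, in which more cells that express a gene and more RNA per cell cannot be told apart.

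Promoter windows of the members were searched for binding motifs of Runx1, the factor that defines the sort, and of the TCF/LEF factors at the end of the Wnt pathway. RefSeq windows (GRCm38.p6) that run from 250 bases before to 50 bases after each annotated start were found for 61 of the 89 genes, 90 windows in all. Both strands were read for the RUNX motifs TGTGGT and TGCGGT and the TCF/LEF motif CTTTGA, which cannot match the same bases in full. TGTGGT was present in 8.89% of the members' windows, against 12% of 9968 windows of genes above 100 and 16.8% of all 32851 windows. TGCGGT was present in 7.78% of the members' windows, against 9.62% and 6.45% of those 2 sets. CTTTGA was present in 13.3%, against 11.4% and 16%. The members' share lay below both other sets for TGTGGT and between them for the other motifs. A match shows letters in a window, not a site that is bound.

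The matches upstream of the start are shown for the members whose level in population 2 was at least 1.25-fold above that in every other population. Each stretch of 30 bases reads 5′ to 3′ on the strand of its gene, with the motif in capitals. A match is shown only where its whole stretch lies upstream of the start and within the window, so matches nearest the start are left out. A motif that lies on the other strand appears as its reverse complement, ACCACA or ACCGCA for RUNX and TCAAAG for TCF/LEF. The 7 RUNX matches lie in Ablim1 (chr19:57119225-57119254, minus strand), Hspa12a (chr19:58943875-58943904, minus), Man1c1 (chr4:134704353-134704382, minus), Rbms3 (chr9:117629953-117629982, minus), Vcan (chr13:89742529-89742558, minus) and 2 places before 1 start of Wnt11 (chr7:98838651-98838680 and chr7:98838707-98838736, plus):
Ablim1: caagctgtgctcACCACAtaaatttctctc
Hspa12a: cagcgtcaggtcTGTGGTttagaaaaccaa
Man1c1: cattggccgaacTGCGGTgccgcggcgggc
Rbms3: gagcgtggctgcTGCGGTgggacgcaagga
Vcan: caggcggtccctACCGCAggctgagggagc
Wnt11, first: agttcctctcctTGCGGTcgctacgtcagt
Wnt11, second: gggtctcctcctTGCGGTcctctccagact
The 4 TCF/LEF matches lie in Bcat1 (chr6:145076160-145076189, minus strand), Lin28a (chr4:134018871-134018900, minus), Ucn (chr5:31138970-31138999, minus) and at another start of Wnt11 (chr7:98835050-98835079, plus):
Bcat1: gtagcaaatgaaTCAAAGacgctttcagat
Lin28a: gaatttgggagcCTTTGAaaagccgtgggc
Ucn: aagctgctggacTCAAAGctgccggtgtca
Wnt11, other start: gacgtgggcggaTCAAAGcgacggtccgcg
Among the matches shown, the motif lay closest to the start in Bcat1, 20 bases upstream, and in Vcan, 34 bases upstream. In Lin28a it lay 72 bases and in Ucn 92 bases upstream. The pair of RUNX matches in Wnt11 lay 182 and 126 bases before their start.

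Across the 89 genes the median signal was 337, 494, 351 and 50.3 in populations 1 to 4. The genes were thus at similar levels in the 3 VE-cadherin+ populations and low in the VE-cadherin- population. Population 4 was the lowest for 87 of the 89, with a signal below 100 for 62 and below 50 for 44, and the exceptions were Gfi1 and Sall3, which were lowest in population 1. Next to population 2 stood population 3 for 53 genes and population 1 for 36. Signals in population 2 ranged from 101 to 10867, with 26 genes at 1000 or more and 18 under 200.

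The lead of population 2, taken as the log2 ratio of its signal over the next highest population with signals below 100 raised to 100, was small for most of the genes. Its median was 0.26 and its maximum 1.29. Only 6 genes (Vcan, Sost, Wnt11, Ucn, Cyp26a1 and Twist1) led by at least 2-fold, 36 led by at least 1.25-fold, and 27 led by less than 1.1-fold. The same floor of 100 is used for all folds below, and a fold against a signal below 100 is given as "at least".

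In population 2, 17 members exceeded population 1 by 2-fold or more, as did 2.92% of all 9468 genes above 100. An excess of 2-fold or more over population 3 was seen for 11 members, against 0.253% of all genes. Over population 4 it was seen for 71, against 9.47%, and a 4-fold excess for 54, against 3.74%. None reached 4-fold over population 1 (0.0528% of all genes) or population 3 (0%). The rule used these contrasts, so the background is given for scale alone. The same shares, with 0.94% for membership and 4.19% and 3.11% for genes 2-fold or more lower in population 2 than in populations 1 and 3, are the background for the gene lists below. The median log2 ratio of the members was 0.49 over population 1, 0.38 over population 3 and 2.20 over population 4, where all genes above 100 had medians of 0, -0.22 and -0.31. The 2-fold difference was reached against both other VE-cadherin+ populations by 6 members, against population 1 alone by 11, against population 3 alone by 5 and against neither by 67.

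**Figure D1:**
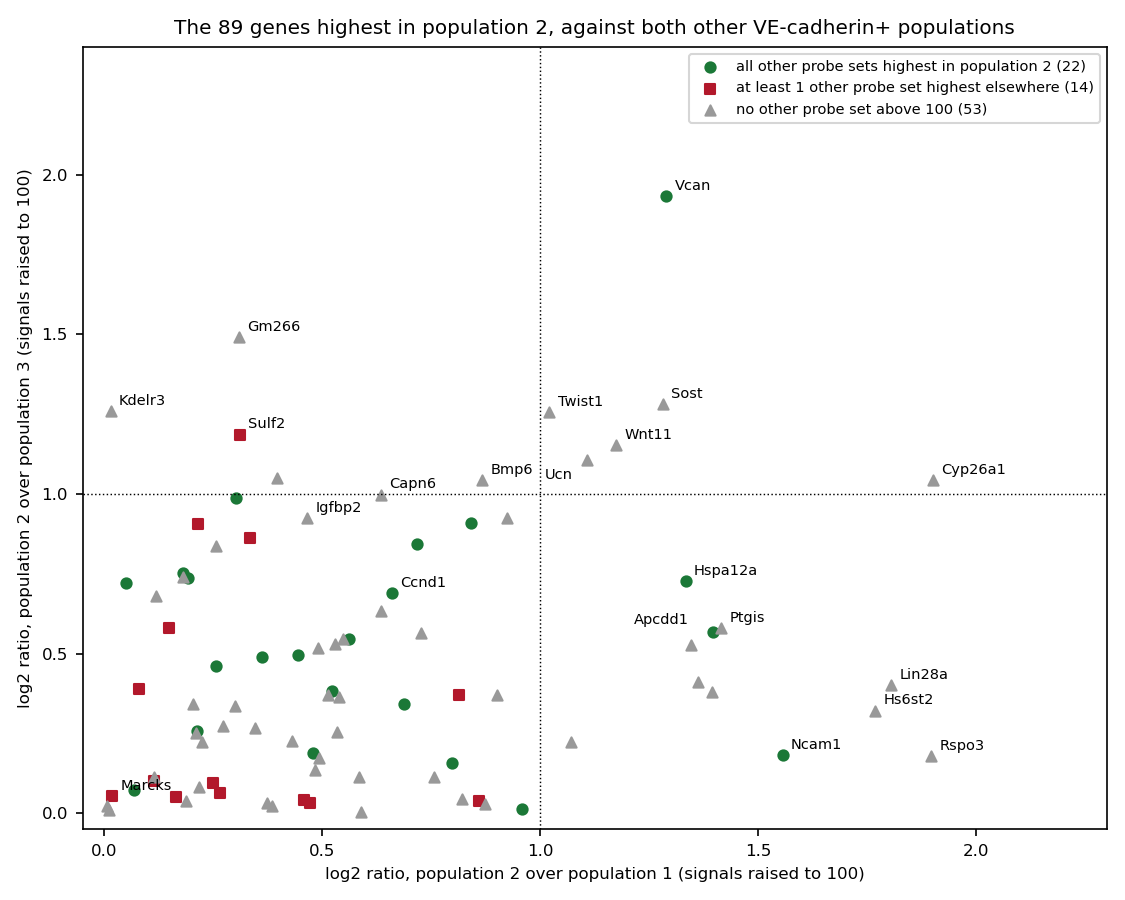
Log2 ratio of population 2 over population 1 (x axis) and over population 3 (y axis) for each of the 89 genes, with signals below 100 raised to 100 and dotted lines at 2-fold; marker shape and colour give how the gene's other probe sets behaved. The 6 genes past both lines are Vcan, Sost, Wnt11, Ucn, Cyp26a1 and Twist1, while 67 genes lie below 2-fold on both axes.

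Which genes were called depended on how the arrays were scaled. Arrays centred on their median over genes above 100 gave 144 genes, of which 86 were among the 89. Quantile normalisation gave 138, of which 87 were. Scaling on 18 hybridisation control probe sets, an alternative added after the data were seen, gave 39, of which 38 were. That last scaling shifted the log2 signals by -0.15, -0.20, 0.17 and 0.18 in populations 1 to 4. Median centring shifted them by 0.16, 0.14, -0.17 and -0.13. These scalings thus moved population 2 against population 3 in opposite directions. Each moved populations 1 and 2 by nearly the same amount, so a small lead over population 1 was hardly put to the test by them. The 38 genes that met the whole rule under all 3 scalings are called scaling-robust below. The other members failed it under at least 1 of the 3, on peak, SD or signal. For these, a statement that the gene was highest in population 2 is made for the deposited scale. Some of them kept a lead under all 3, such as Pcbp4 (at least 0.17) and Tagln (at least 0.21).

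**Figure D2:**
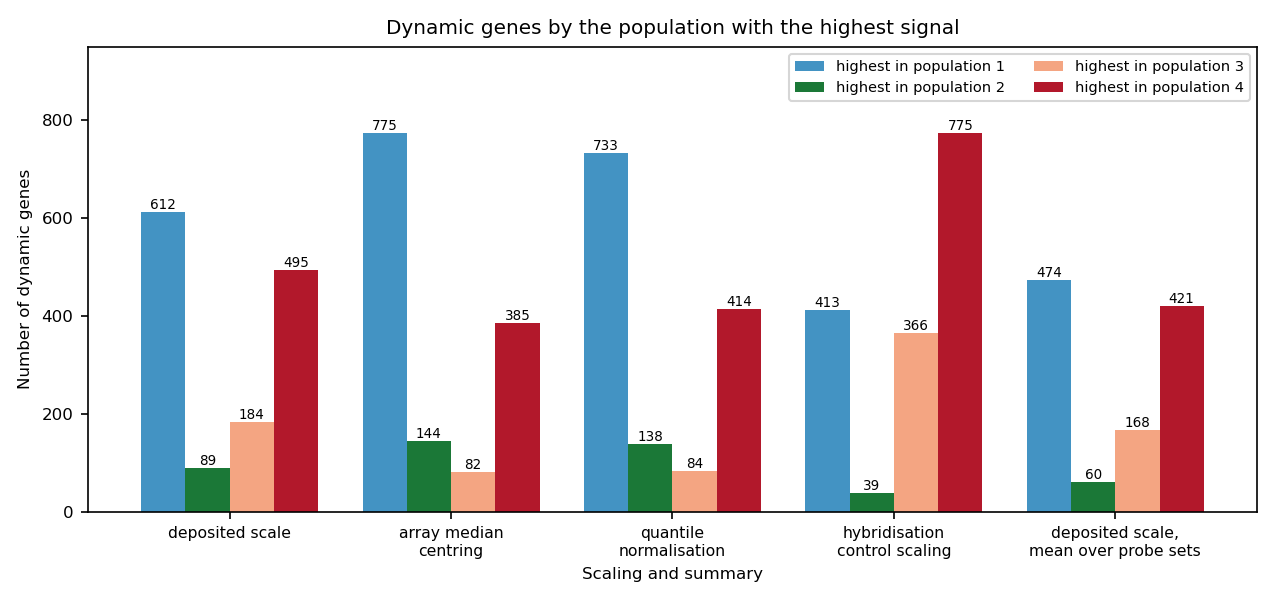
Number of dynamic genes by the population with the highest signal (bars, coloured by population) on the deposited scale, under the 3 other scalings and with all probe sets of a gene averaged. The count for population 2 is 89 on the deposited scale and 144, 138, 39 and 60 under the others.

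Wnt pathway genes included Wnt11 and Sost, which led by at least 2-fold. Of the 5 genes, 4 (Wnt11, Tcf7l1, Apcdd1 and Sost) were scaling-robust, Tcf7l1 with a lead of only 0.18 over population 1. All 5 exceeded population 4 by 2-fold or more. Wnt11, a secreted ligand best known for signalling without beta-catenin, gave signals of 70.7, 226, 101 and 27.7 in populations 1 to 4. It was 2.22-fold above population 3 in population 2 and at least 2.26-fold above population 1. Rspo3, a secreted R-spondin that raises the number of Wnt receptors at the cell surface, gave 558, 2076, 1836 and 389. It was 3.72-fold above population 1 in population 2, but only 1.13-fold above population 3, and under hybridisation control scaling it was lower in population 2 than in population 3.

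The other 3 members act to restrain the pathway. Apcdd1, a membrane protein that inhibits Wnt signalling at the receptor, gave 1063, 2797, 1888 and 144 in populations 1 to 4, 2.63-fold above population 1 in population 2 and 19.5-fold above population 4. All 4 of its other probe sets also peaked in population 2, with leads of 0.59 to 0.92. Sost, which encodes the LRP5 and LRP6 antagonist sclerostin, gave 53.1, 243, 88.4 and 3.31, and was above 100 in population 2 alone. Tcf7l1, a TCF/LEF factor that mostly acts as a repressor, gave 966, 1094, 650.3 and 46.0. Its level in population 2 was close to that in population 1, and its largest step lay between populations 3 and 4.

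Of 33 genes of a Wnt list on the array, 16 were above 100 somewhere and 3 of them (Wnt11, Rspo3 and Tcf7l1) were members. Against population 1, 3 of the 16 were 2-fold or more higher in population 2 and 2 were as much lower. Against population 3, 2 were higher and none lower by this margin, which 3.11% of all genes above 100 were. The median log2 ratio of the list was 0.02 over population 1 and -0.05 over population 3. The receptor Fzd7 peaked in population 2 as well, with 194, 425, 182 and 169.9 in populations 1 to 4, but its SD was below the limit. Lef1, the TCF/LEF activator, ran the other way with 292, 141, 78.0 and 17.7, highest in population 1.

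**Figure D3:**
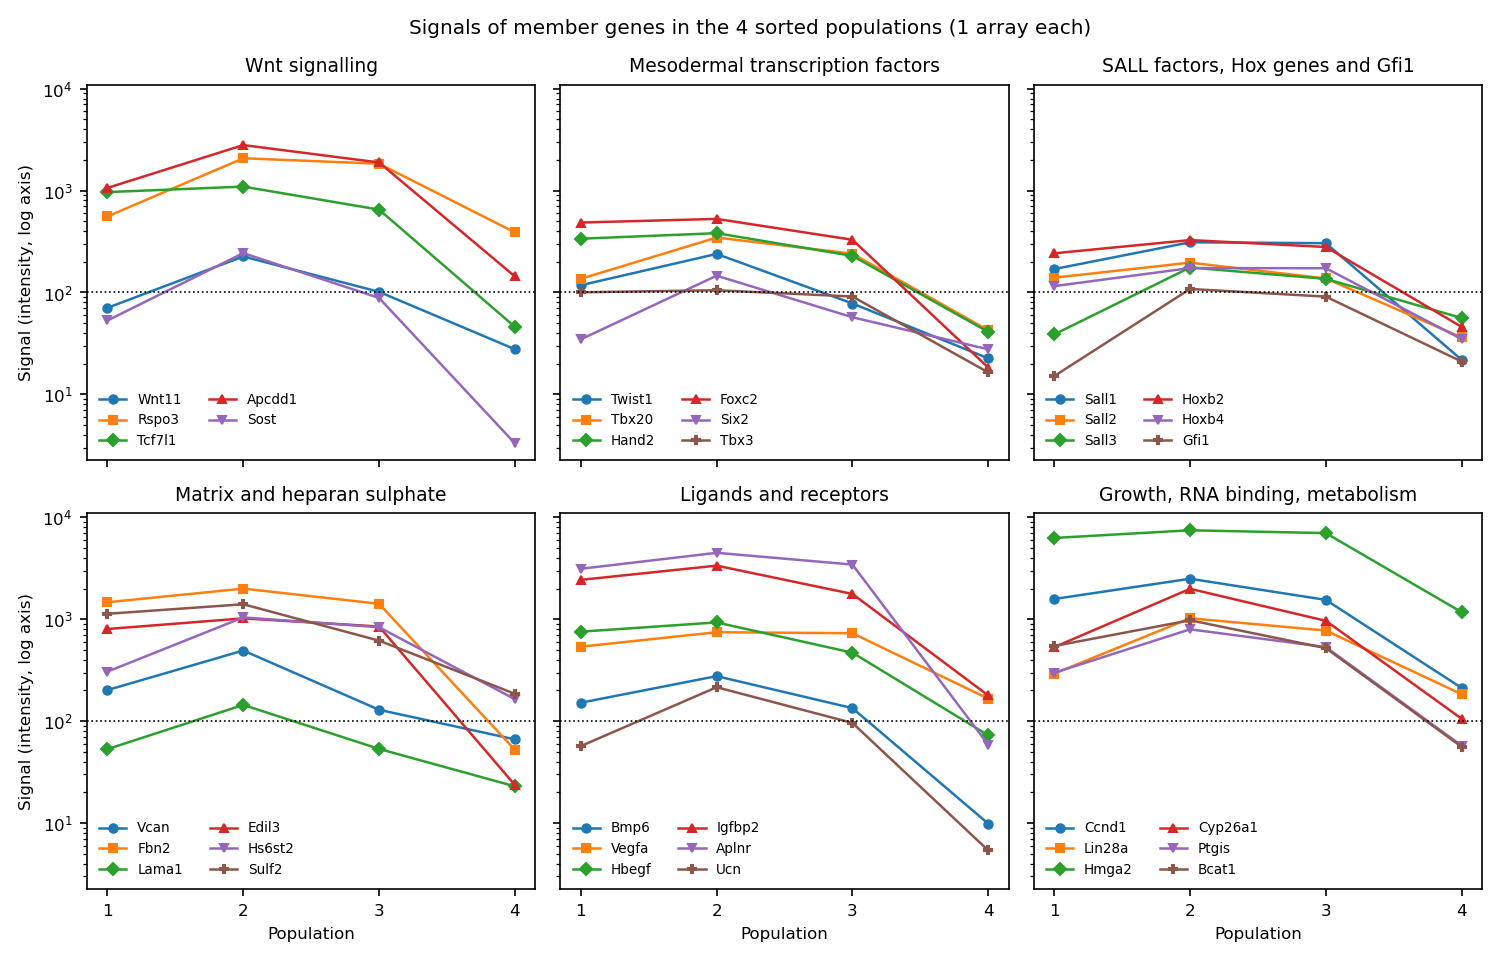
Signals of 35 of the 89 genes in the 4 sorted populations (x axis, 1 array each) on a log axis in intensity units, in 6 groups by role; the dotted line is the signal of 100 used as a floor for folds. Most lines are level or peak gently over the VE-cadherin+ populations 1 to 3 and drop at population 4. Wnt11, Sost, Ucn, Vcan, Cyp26a1, Twist1, Lama1 and Six2 stand out at population 2, Lama1 and Six2 from signals below 100 in the other populations.

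Among 15 transcription factors and coactivators, factors of the mesoderm and of the developing heart were the largest group. Twist1, a bHLH factor of mesenchymal cells, gave 118, 239, 77.9 and 22.6 in populations 1 to 4. It was 2.03-fold above population 1 in population 2, and its level in population 3 was below 100. Tbx20, a T-box factor of cardiac progenitors, gave 136, 346, 240.1 and 42.5, 2.54-fold above population 1 in population 2 and 1.44-fold above population 3. Hand2, a bHLH factor of lateral mesoderm, gave 337, 382, 229 and 41.05, and Foxc2, a forkhead factor of paraxial mesoderm and lymphatic vessels, gave 486, 527, 329 and 18.3. Both were near their level in population 1, lower in population 3 and below 100 in population 4. Creb3l2, a membrane-bound bZIP factor of the secretory pathway, gave 1357, 1434, 1095 and 119, while its other probe set gave 182, 150.3, 138 and 37.5, highest in population 1. These 5 genes were scaling-robust. Six2, known from nephron progenitors, gave 34.7, 146, 57.1 and 27.7 and was above 100 in population 2 alone. Tbx3, another T-box factor, gave 100.4, 105, 91.2 and 16.4 and barely passed the limit on signal.

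Of 9 lateral mesoderm and cardiac progenitor genes above 100, 4 were highest in population 1, 3 in population 2 and 2 in population 3. In population 2, 1 was higher and 2 were lower than in population 1 by 2-fold or more. The list's median log2 ratio for population 2 was -0.18 over population 1 and 0.23 over population 3. The list's summed signal was 3305 in population 2, against 4321 in population 1, 3780 in population 3 and 2247 in population 4. Of the 3 early mesoderm genes above 100, Foxc2 and Eomes were highest in population 2, with Foxc2 alone a member, and the median log2 ratio was 0.12 over population 1 and 0.28 over population 3. Eomes, a T-box factor of the primitive streak, gave 51.6, 122, 80.1 and 62.7, and 15 of the 18 on the array were below 100 everywhere.

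The SALL zinc finger factors, embryonic regulators related to spalt of the fly, gave 3 members of 4 genes. This list was drawn up after the values were seen, so its count is not a result about the family. Sall2 gave 139.8, 196, 137 and 36.2 in populations 1 to 4. Sall1 gave 169.7, 311, 305 and 21.8, with nearly the same level in populations 2 and 3. Sall3 gave 38.8, 176, 136 and 56.2, at least 1.76-fold above population 1 in population 2, and another of its probe sets was slightly higher in population 3 than in population 2. Sall4, the family member of pluripotent cells, gave 633, 768, 917 and 378 and peaked in population 3, so the order of populations 2 and 3 differed between family members. None of the 3 members was scaling-robust.

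Gfi1, a transcriptional repressor that acts downstream of Runx1 in haemogenic endothelium, gave 15.1, 108, 91.0 and 21.0 in populations 1 to 4. It was above 100 in population 2 alone, by a narrow margin, and under hybridisation control scaling its level in population 2 lay below that in population 3. It was the only member among 23 haemogenic and blood transcription factors above 100, of which 13 peaked in population 4 and 3 in population 2. The other peaks in population 2 were Gata2 (530, 548, 518 and 330) and Mycn (774, 1716, 1420 and 1058), whose SD was below the limit. Hoxb2 and Hoxb4, anterior genes of the Hoxb cluster, gave 242, 327, 279 and 45.9 and 115, 174, 173 and 34.9. Levels in population 3 were within 1.25-fold for both, and under hybridisation control scaling both were lower in population 2 than in population 3. Yap1, the Hippo pathway coactivator, gave 1864, 2065, 1381 and 379, and another probe set of it peaked in population 1.

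Of 10 genes for ligands, receptors and their modulators, 7 were scaling-robust and all exceeded population 4 by 2-fold or more. Ucn, which encodes the peptide hormone urocortin, gave 57.0, 215, 96.0 and 5.39 in populations 1 to 4 and was above 100 in population 2 alone. Bmp6, a BMP ligand, gave 152, 277, 134.2 and 9.86, 1.82-fold above population 1 in population 2 and 2.06-fold above population 3. It was the only member among 27 BMP and TGF-beta genes above 100, of which 17 peaked in population 1 and 8 in population 3. Aplnr, the apelin receptor of mesoderm and venous endothelium, gave 3129, 4492, 3442 and 58.8. It was at least 44.9-fold above population 4 in population 2, and its other probe set also peaked in population 2. Its lead was 0.01 under hybridisation control scaling, against 0.38 on the deposited scale. Igfbp2, which binds insulin-like growth factors, gave 2436, 3362, 1772 and 179 and was 1.90-fold above population 3 in population 2.

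Hbegf, a membrane-anchored ligand of the EGF receptor, gave 756, 931, 469.8 and 72.6, and Errfi1, which inhibits that receptor, gave 902, 1029.9, 618 and 211. Both were at their lowest in population 4 and ordered population 2, population 1, population 3 from the top. Of 10 genes of EGF receptor ligands, receptors and feedback, 4 were above 100, and these were the 2 members among them. That list was drawn up after the values were seen, so its count is a description alone. Cd40, a receptor of the TNF receptor family, gave 431, 543, 299 and 39.7, and Sorcs2, a sorting receptor for neurotrophins, gave 193, 254, 123 and 18.5. Of the 2 other probe sets of Cd40, 1 was highest in population 2, and 1 gave 527 in population 1 and 526 in population 2. Sorcs2 was 2.07-fold above population 3 in population 2. Vegfa, the growth factor that Flk1 binds, gave 538, 746, 729 and 166. Its lead over population 3 was only 0.03, another probe set of it was highest in population 3, and under hybridisation control scaling it was lower in population 2 than in population 3. Grap, a Grb2-related adaptor, gave 277, 359, 351 and 16.3.

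Extracellular matrix and glycan genes made up 14 of the members. Vcan, which encodes the chondroitin sulphate proteoglycan versican, had a lead of 1.29, the largest with the floor of 100, next to at least 1.28 for Sost. Without the floor the signals of Zfp365, Sost, Lama1 and Six2 stood further above the next population, and with the mean over its probe sets the lead of Vcan was 0. It gave 202, 493, 129 and 66.3 in populations 1 to 4, 2.44-fold above population 1 in population 2 and 3.82-fold above population 3. Its other probe sets gave 175, 513, 156 and 57.3 and 95.7, 275, 65.8 and 8.35, with the same order of populations 2, 1, 3 and 4. Fbn2, a fibrillin of embryonic microfibrils, gave 1469, 1999, 1419 and 52.4 and was at least 19.99-fold above population 4 in population 2. Tnfaip6, a hyaluronan-binding protein, gave 179, 459, 346 and 10.9, 2.57-fold above population 1 in population 2. These 3 were scaling-robust, together with Sulf2 and the Golgi mannosidase Man1c1, which gave 540.1, 894, 604 and 106.

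Among the other matrix genes, Lama1, a laminin chain of early basement membranes, gave 53.2, 144, 53.4 and 22.9 and was above 100 in population 2 alone. Edil3, an integrin ligand made by embryonic endothelium, gave 803, 1021, 849 and 23.7, and Emilin1, an elastic fibre protein, gave 368, 669, 651 and 132, with another probe set highest in population 3. Edil3 and Emilin1 had a level in population 3 within 1.25-fold of that in population 2. Col27a1, a fibrillar collagen, gave 79.7, 121, 99.97 and 10.1, and Adamtsl2, a matrix protein that binds fibrillin, gave 93.7, 101, 83.2 and 6.87 and only just passed the limit on signal. Of 30 integrin and matrix genes above 100, Vcan was the only member, where 0.94% of all genes above 100 were members. Against population 1, 8 of the 30 were lower and 1 was higher by 2-fold or more in population 2, where 4.19% and 2.92% of all genes were. The median log2 ratio was -0.61.

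A pair of members act in opposite ways on heparan sulphate, the glycan that holds growth factors at the cell surface. Hs6st2, which adds 6-O-sulphate groups, gave 306, 1043, 835 and 164 in populations 1 to 4 and was 3.41-fold above population 1 in population 2. Sulf2, which removes them, gave 1132, 1404, 617 and 186 and was 2.27-fold above population 3 in population 2. The probe sets of Sulf2 disagreed: 1 gave 574, 568, 188 and 33.7, level between populations 1 and 2, and the other 365, 485, 696 and 1245, highest in population 4. St8sia1, the sialyltransferase that makes the ganglioside GD3, gave 529, 766, 642 and 83.7. Colec12, a scavenger receptor with a collectin domain, gave 281, 396, 351 and 53.7, and Pkdcc, a secreted protein kinase, gave 965, 1874, 1859.7 and 277, with a lead over population 3 of only 0.01.

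Of 6 genes for growth, RNA binding and chromatin, 5 led by at least 1.25-fold. Ccnd1, which encodes the G1 cyclin D1, gave 1582, 2499.7, 1549.6 and 212 in populations 1 to 4. It was 1.58-fold above population 1 in population 2, 1.61-fold above population 3 and 11.8-fold above population 4, and both its other probe sets peaked in population 2. Its peak set it apart from the other cell cycle genes listed, but its fall to population 4 did not. Cdkn1a and Cdkn1c were also 2-fold or more higher in population 2 than in population 4, and 11 listed genes were lower by as much. Of 30 cell cycle and mitosis genes above 100, 26 peaked in population 4 and Ccnd1 alone in population 2. Compared with population 1, 21 of the 30 were higher by 2-fold or more in population 2 and 1 was lower by as much, where 2.92% and 4.19% of all genes above 100 were.

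Lin28a, the RNA-binding protein that blocks maturation of the let-7 microRNAs, gave 293, 1023, 775 and 184 in populations 1 to 4. It was 3.49-fold above population 1 in population 2, and its lead over population 3 was 0.03 under hybridisation control scaling, against 0.40 on the deposited scale. Hmga2, a chromatin protein whose transcript let-7 represses, gave 6283, 7474, 7008 and 1175, with populations 1 to 3 within 1.25-fold of each other and 1 of its 3 other probe sets highest in population 2. The let-7 targets Igf2bp1 and Igf2bp3, which are not members, gave 1718, 2994, 2389 and 1709 and 1525, 1882, 1841 and 748. Both were highest in population 2 on the deposited scale, Igf2bp3 only slightly above population 3. Trim71 gave 991, 1786, 1804 and 604, with population 2 slightly below population 3. The let-7 list was drawn up after the values were seen, and the order of these 3 genes under other scalings is not given here. Of 21 pluripotency genes on the array, 6 were above 100, 5 of these peaked in population 3, and Lin28a alone in population 2. Pcbp4 and Rbms3, both RNA-binding proteins, gave 1393, 2055, 1409 and 375 and 366, 470.1, 335 and 37.6, and all their other probe sets, 2 and 3 in number, peaked in population 2. Macroh2a2, a histone variant, gave 64.9, 143, 110.3 and 25.1.

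The 20 cytoskeleton, junction and adhesion genes were the largest group, and none reached 2-fold over population 3. Ablim1, an actin-binding LIM protein, gave 303, 498, 278 and 50.3 in populations 1 to 4 and led by 0.72 on the log2 scale. Nav2, a microtubule-binding neuron navigator, gave 58.8, 189.8, 96.0 and 10.9, and Capn6, a calpain without protease activity that binds microtubules, gave 264, 409.8, 205 and 51.2. Kank4, of a family that links talin to the cell cortex, gave 95.3, 155, 82.5 and 22.3. These 4, Enc1 and Krt19 were scaling-robust, although the lead of Krt19 was only 0.0059 under hybridisation control scaling, against 0.38 on the deposited scale. Enc1, an actin-associated kelch protein, gave 2588, 3089, 2244 and 373. The tubulin Tubb6 gave 1559, 2265, 1759.8 and 427, and under hybridisation control scaling its lead was -0.01. Tagln, an actin-binding protein of smooth muscle, gave 612, 731, 409 and 133.

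Marcks, a membrane-bound substrate of protein kinase C, had the highest signals of all members, 10736, 10867, 10478 and 2403 in populations 1 to 4. Levels in the 3 VE-cadherin+ populations were within 1.1-fold, and all 6 other probe sets of Marcks peaked in population 1. Of 29 cytoskeleton and motility genes above 100, Marcks and Tubb6 were the members. None of the 29 was higher and 3 were lower by 2-fold or more in population 2 than in population 1, where 2.92% and 4.19% of all genes above 100 were. Over population 4, 13 were higher by 2-fold or more, against 9.47% of all genes. The adhesion molecule Ncam1 gave 372, 1094, 963 and 69.4, 2.94-fold above population 1 in population 2, and both its other probe sets peaked in population 2, 1 of them above 100 there alone. Its lead turned negative under hybridisation control scaling and was 0 with the mean over probe sets. Krt19, a keratin of simple epithelia, gave 110.3, 289.6, 223 and 8.80, 2.63-fold above population 1 in population 2. Dsp, which encodes the desmosomal linker desmoplakin, gave 287, 332, 278 and 64.3, with similar levels in populations 1 to 3.

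The other 9 of this group led by 0.01 to 0.37. Abi3, a component of WAVE actin-nucleating complexes, gave 229, 426, 330.1 and 56.6 in populations 1 to 4, and Epb41l3, a membrane-cytoskeleton linker, gave 348, 559, 441 and 63.8. Tspan5, a tetraspanin, gave 236, 409.8, 368 and 62.3. The adaptor Bcar3 gave 236, 329, 299.5 and 33.2, and Myzap, a junction protein of heart and endothelium, gave 628, 942, 871 and 35.5. Arap3, a GTPase-activating protein of endothelium, gave 2336, 2807, 2687 and 169.96 and was 16.5-fold above population 4 in population 2. Of its 2 other probe sets, 1 was highest in population 2 and 1 in population 3. Kirrel, an adhesion protein of the nephrin family, gave 258, 455, 442 and 49.98. Rai14 and Arpin, both tied to actin, gave 1358, 1866, 1814 and 423 and 101, 102, 86.8 and 9.45, and another probe set of Rai14 was highest in population 3. Each of these genes was lowest in population 4.

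Metabolic and redox enzymes numbered 7. Cyp26a1, the enzyme that breaks down retinoic acid, gave 533, 1990.4, 966 and 106 in populations 1 to 4. It was 3.74-fold above population 1 in population 2, 2.06-fold above population 3 and 18.9-fold above population 4, the strongest peak among genes with a signal of 1000 or more. Of 20 retinoic acid and hedgehog genes on the array, 6 were above 100, Cyp26a1 alone was a member, and the other 14 were below 100 in all 4 populations. Ptgis, which makes prostacyclin, gave 299, 797, 533 and 57.5, 2.67-fold above population 1 in population 2. Bcat1, a cytosolic aminotransferase for branched-chain amino acids, gave 546, 978, 521 and 56.0, and its other probe set had the same peak and was above 100 there alone. Abhd6 and Mogat2, a lipase and an acyltransferase for monoacylglycerol, gave 389, 451, 241 and 28.2 and 742, 914, 724 and 53.1, and the other probe set of Abhd6 was highest in population 1. Steap2, a metalloreductase, gave 115, 159.8, 140.3 and 29.9 with both other probe sets highest in population 2, but a lead below 0 under hybridisation control scaling and of 0 with the mean over probe sets. Txndc12, an oxidoreductase of the endoplasmic reticulum, gave 686, 789, 622 and 131.

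Of the 12 other members, Hspa12a, an atypical member of the HSP70 family, led by the most. It gave 96.9, 252, 152 and 31.6 in populations 1 to 4 and was at least 2.52-fold above population 1 in population 2. Gm266 gave 249, 308, 109.5 and 0.90, 2.81-fold above population 3 in population 2. Kdelr3, which returns proteins to the endoplasmic reticulum, gave 489, 494, 207 and 39.6, level with population 1 and 2.39-fold above population 3 in population 2. Zfp365 gave 24.1, 117, 42.4 and 4.50 and was above 100 in population 2 alone. Exoc3l4 gave 444, 933, 799.7 and 29.4, 2.10-fold above population 1 in population 2. Asb4, which is expressed in embryonic endothelium, gave 1858, 2082, 2010.2 and 101 and was 20.5-fold above population 4 in population 2, while its other probe set was highest in population 1, with 1515, 1446, 1446 and 57.4. The kinases Nuak1 and Stk39, the endocytic adaptor Epn2, Cobll1, Plekhh3 and C130075A20Rik led by 0.04 to 0.21, and none of these 6 reached 2-fold over either other VE-cadherin+ population. Of the 3 other probe sets of Epn2, only 1 was highest in population 2. Jazf1, the remaining transcription regulator, gave 101, 132, 130.3 and 26.9, with its level in population 3 within 1.1-fold of that in population 2.

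The arrays carry 121 further probe sets for 56 of the 89 genes, of which 58, for 36 genes, were above 100. They are a second reading on the same arrays, not replicates, and the rule did not use them. Of the 58, 36 (62.1%) were highest in population 2. A set of 5 of these 36 (in Vcan, Bcat1, Hspa12a, Ncam1 and Tbx3) passed 100 in population 2 alone and could only peak there, and without them 31 of 53 (58.5%) did. Over all dynamic genes, 732 of 810 other probe sets (90.4%) peaked in the same population as the gene's main probe set, with 91.2% for genes highest in population 1, 78.5% for population 3 and 99% for population 4. Among probe sets that passed 100 outside the gene's peak the shares were 88.8%, 76.5% and 97.7%. The share was thus lowest for genes peaking in population 2 either way, a difference that was not tested. Among members with a lead of at least 1.25-fold it was 20 of 22 (90.9%), and among those with a smaller lead 16 of 36 (44.4%), or 17 of 19 (89.5%) and 14 of 34 (41.2%) without those 5. The part of the pattern that held best was the difference from population 4: population 2 was above population 4 in 56 of the 58, and above population 1 and above population 3 in 43 each. Where the peak lay elsewhere it was in population 1 for 13, in population 3 for 8 and in population 4 for 1.

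**Figure D4:**
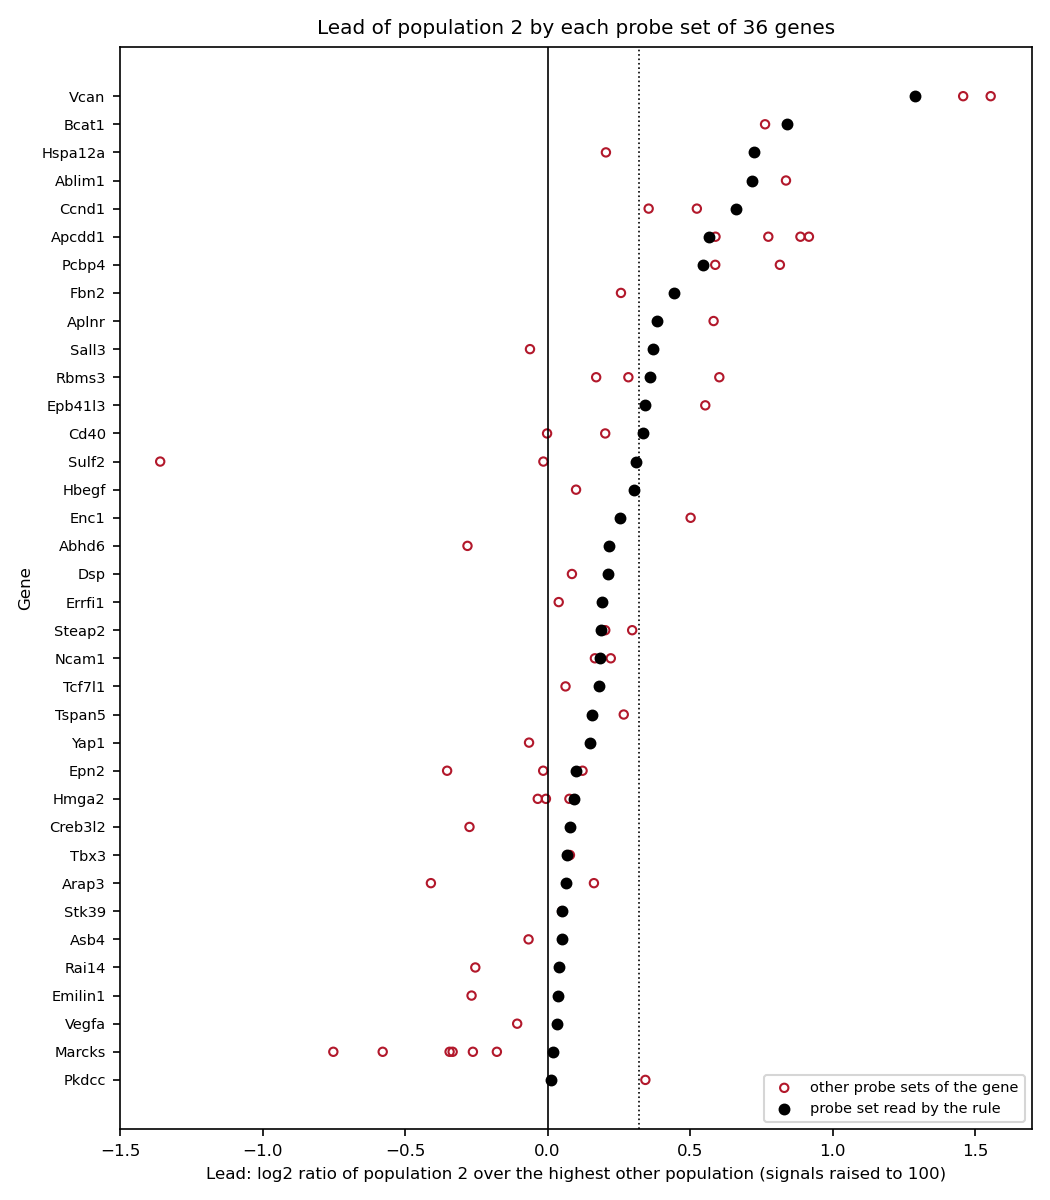
Lead of population 2 (x axis, log2 ratio over the highest other population, signals raised to 100) for the probe set read by the rule (filled points) and the other probe sets (open points) of the 36 genes with more than 1 probe set above 100; the dotted line marks 1.25-fold. Open points left of 0 gather in the lower part of the plot, where the lead of the filled point is small, with all 6 of Marcks there.

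The members sat close to the limits of the rule in many cases. By SD, Rai14 (1.01), Vegfa (1.02) and Sall3 (1.03) were just inside, and Serpinf1 (0.994), Rab34 (0.991) and Camk2a (0.985) just outside. By signal, Adamtsl2 (101), Arpin (102) and Tbx3 (105) were just inside, and Msi1 (98.9), Dnah8 (97.2) and Mindy4 (97.0) just outside. By the order of populations, Hoxb4 was inside with 173.6 in population 2 and 173.0 in population 3. Nrp2, the neuropilin of veins and lymphatics, was outside with 1778 in population 2 and 1785 in population 3. Nek6 (586 in population 2 and 589 in population 3) and Fam107b (2059 and 2077) were outside in the same way. A further 127 dynamic genes had a level in population 2 within 1.25-fold below that of their highest population, which was population 1 for 78 and population 3 for 49.

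Several members are known best from other cell types, and the markers of those types are given beside them. Of 24 stromal and mesenchymal genes on the array, 16 were above 100, with Twist1 and Tagln as members. Their summed signal was 22751 in population 2, against 26785 in population 1, 23707 in population 3 and 9354 in population 4. Of the type I collagen chains, Col1a2 gave 1988, 1132, 969.9 and 843 in populations 1 to 4 and Col1a1 82.5, 71.5, 51.7 and 45.6. Col1a1, Pdgfra, Lum, Dcn and Thy1 were among the 8 genes of the list below 100 throughout. Pdgfrb was above 100 throughout and highest in population 2, with 250, 271, 159 and 194. The summed signal of smooth and cardiac muscle genes was 3031 in population 2, against 3055, 2917 and 3031 in populations 1, 3 and 4. Among epithelial genes, 6 of 14 were above 100, namely Krt8, Krt18, Krt19, Dsp, Ocln and Tjp1, while Cdh1 and Epcam were not. The sums were 6659 in population 2 and 6862, 6293 and 1819 in populations 1, 3 and 4. Of 18 neural genes, 4 were above 100, namely Nes, Ncam1, Zic2 and Ednrb, while Sox1, Sox2 and Sox10 were not. Their list had sums of 2289 in population 2 and 2571, 2464 and 552 in the others. In none of these lists was the sum highest in population 2. Much of the sums there came from Fn1 (8311) and Sparc (7959) for the stromal list and Tjp1 (4976) for the epithelial list. By count, population 2 was highest for 3 of 16 stromal, 1 of 7 muscle, 3 of 6 epithelial and 2 of 4 neural genes above 100. Of all genes above 100, 5.51% were highest there at any SD. The part of OP9 or other cells in the members' values was not tested.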

How the data were processed

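RNA of 4 sorted populations was hybridised to 1 array each. The authors deposited probe set intensity values on a linear scale. MAS5 and GCOS 1.3 are listed in the submitters' processing notes, and the scaling target is not given in the sources used here. Of 45101 probe sets, 34958 carried a single gene symbol and were used, while 932 with several and 9211 with none in the array annotation were not. Signals under 1 were set to 1 before log2, and the SD was taken with n - 1.

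Folds used signals raised to 100 where lower. Members are named where they are among the 15 largest leads with a signal of at least 200, belong to a gene list, have at least 2 other probe sets that all peak in the same population, or lie next to a threshold; all other members, the roles, and the lists of SALL, heparan sulphate, let-7, EGF receptor and Hippo genes were chosen after their values were seen. The members and all lists were chosen with earlier results of these data known. Of the 5 genes of the Hippo list above 100, Yap1 was the only member.

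Alternatives were other scalings, signal limits, SD definitions and probe set rules. The code for the rule was run on simulated data with planted peaks larger than most leads seen here. That run therefore does not bear on the small leads. Calculations used numpy 2.4.6 and pandas 2.3.3 under Python 3.11.15, with scipy 1.17.1 for intervals and matplotlib 3.10.9 for plots. No stretch from chromosome 18 is printed. The Agilent arrays, embryo arrays and ChIP-Seq data of the study were not used here.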

Additional observations from a re-analysis of the deposited data

How the results depend on the processing

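The count of 89 genes moved to 144 with arrays centred on the median, 138 with quantile normalisation, 46 with signals raised to 100 before log2, 39 with scaling on hybridisation controls and 36 where a lead of at least 1.25-fold was required. The last pair of settings was chosen after seeing the data. It was 60 with the mean over probe sets, 87 without probe sets shared between transcripts, 108 and 71 with a signal minimum of 50 and 200, and 71 with the SD taken with n.

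Members that exceeded population 4 by 2-fold or more (71) numbered 116 with centring, 108 with quantile normalisation, 42 with the mean over probe sets, 46 with signals raised to 100, 29 with the lead required and 33 with hybridisation controls. Over population 3 (11) they numbered 27 with centring, 26 with quantile normalisation, and 4 both with signals raised to 100 and with hybridisation controls. Over population 1 (17) they numbered 9 with signals raised to 100 and 10 with hybridisation controls.

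The share of other probe sets highest in population 2 (62.1%) was 75.6% with quantile normalisation, 76.9% with hybridisation controls and 90.9% with the lead required, where the median lead was 0.55 by construction. The leads of 36 named members were taken under 5 alternatives (median centring, quantile normalisation, hybridisation controls, the mean over probe sets and no shared probe sets). Of these 180 values, 113 stayed within the spread between probe sets of a gene (0.20 on the log2 scale). With hybridisation controls 11 leads fell below 0: Tubb6, the only one of these with a deposited lead of at least 1.25-fold, to -0.0099, and Hoxb2, Dsp, Steap2, Ncam1, Rspo3, Gfi1, Tbx3, Vegfa, Marcks and Hoxb4. Marcks was below 0 under the other 4 as well, and Vegfa and Hoxb4 with the mean over probe sets. With that mean the leads of Vcan, Sost, Hspa12a, Ablim1, Tbx20, Dsp, Ncam1, Steap2, Hand2 and Tbx3 were 0, since the mean lay below the floor of 100 in all populations. The cause of the other changes was not tested. Under all 3 scalings 38 genes remained, and 25 of these also with the mean over probe sets.

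No paired analysis was possible because each population was measured on 1 array. No replicate was left out, no value has an error between samples, and folds against signals below 100 are bounds.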

Other observations

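The promoter windows of the members were also read, on both strands, for motifs of other factors that act in early blood and endothelial cells. The GATA motif AGATAA was present in 10% of the members' windows, against 6.18% of windows of genes above 100 and 11.2% of all windows. The TEAD motif GGAATG was present in 16.7%, against 11.6% and 14.7%. The core motif of retinoic acid receptors, AGGTCA, was present in 13.3%, against 12.1% and 16.3%, and the E-box CANNTG in 63.3%, against 62.2% and 72.3%. The median GC content of the members' windows was 61.7%, close to the 61.3% of windows of genes above 100, where all windows had 52.7%. No test was made on these shares, and windows of 1 gene with several starts can overlap.

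Of 20 arterial and Notch genes 16 were above 100, and none was a member, where 0.94% of all genes above 100 were. Of the 16, 14 were highest in population 1 and none in population 2, where 5.51% of all genes were at any SD. In population 2, 6 of the 16 were lower by 2-fold or more than in population 1 and none was higher, against 4.19% and 2.92% of all genes above 100. The endothelial identity list had the same order, with 22 of its 30 genes highest in population 1 and a median log2 ratio of -0.63 for population 2 over population 1. Etv2 alone of that list was highest in population 2, with 199, 690, 440 and 245 in populations 1 to 4, but its SD was below the limit.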
